A study of Mus musculus and Mus musculus musculus x Mus musculus castaneus with 8 samples.

Results

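The sites described here are stretches of open chromatin that 2 somatic cell types had in common and that were found again in transplanted nuclei with extra Toca1/Fnbp1l but not in control nuclei. They were chosen by overlap of ATAC-seq peaks. A peak of donor mouse embryonic fibroblasts (MEFs) was taken when it overlapped, by at least 1 bp, a peak of C2C12 myoblasts and a peak of MEF nuclei transplanted into oocytes overexpressing Toca1/Fnbp1l, and no peak of control transplanted nuclei. This left 4475 of 39592 donor peaks, or 11.3%. They are called Toca1-only shared sites below. Because the 4 lists named in the rule chose these sites, their overlaps with those lists are a description and carry no test. The study holds 8 libraries of 5 conditions, each condition with 1 list of peaks. The groups used for the rule were C2C12 cells from strain C3h (50000 cells per library, 2 libraries), permeabilized MEFs before nuclear transfer (NT) from embryos of a Mus musculus castaneus cross (3000 cells, 1 library), such MEFs transplanted into Xenopus oocytes and kept for 48 h (3000 cells, 2 libraries), and the same with Toca1 overexpressed in the oocytes (3000 cells, 1 library). Every NT library comes from permeabilized MEF nuclei held in pooled frog oocytes, in which the nuclei neither divide nor replicate their DNA. C2C12 is a single mouse myoblast line. A second C2C12 list, from 1000 cells per library (2 libraries amplified without column purification), was not used by the rule.

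ATAC-seq marks accessible DNA by the insertion of a transposase. In many tissues, sites open in several cell types tend to be promoters of widely used genes and other constitutive elements, whereas sites open in 1 cell type tend to be distal enhancers. Toca1, encoded by Fnbp1l, is an F-BAR protein that binds Cdc42 and N-WASP and promotes branched actin assembly through the Arp2/3 complex. The oocyte nucleus, the germinal vesicle, is rich in actin. Overexpression of Toca1/Fnbp1l in the host oocyte was used to ask whether more nuclear actin polymerization goes with more open somatic chromatin.

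The lists hold positions only. Peak number was 39592 in donor MEFs, 52697 in C2C12 cells from 50000 cells, 8257 after control NT and 16412 with Toca1/Fnbp1l, and no peak was narrower than 150 bp. They give neither reads nor scores, and the depth of the libraries is unknown. The Toca1/Fnbp1l list held 1.99 times as many peaks as the control list and covered 8.81 Mb against 2.80 Mb. With 1 list per arm and no spread between libraries, an effect of Toca1/Fnbp1l cannot be told apart from one of the library or its depth. The absence of a control peak therefore means only that no peak passed the authors' threshold there. Intervals given here are 95% Wilson intervals over peaks unless stated otherwise. They cover counting error only, and no p-value is given, since peaks of 1 list are not replicates.

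Some of the sites could be tied to genes. The transcription start sites (TSSs) of 231 genes were located from a shortened copy of the study's list of peaks newly opened after NT (2430 peaks), which gives the nearest gene of each peak, and 33 of them had a Toca1-only shared site within 1000 bp. A further 4 sites lay inside a gene. In all, 38 sites were placed at 37 genes. Of the 34 sites at a TSS, 30 held the TSS within the donor peak itself. A gene could be located only where at least 2 newly opened peaks had it as the nearest gene, so these genes are no sample of those at all 4475 sites. Promoter sequences from RefSeq (build GRCm38.p6, from 250 bases before to 50 bases after the start) were matched to them by symbol, since the peaks lie in mm9 coordinates. They are shown because a Toca1-only shared site lay within 1000 bp of the TSS of each gene. Whether the RefSeq start is the TSS located here, or lies under the site, was not checked. Of the 33 genes at a TSS, 23 had a single promoter in the table, 2 had more and 8 had none. The 5 with the widest Toca1/Fnbp1l peak are given below, with that of Rpl5, where 2 sites lay side by side. Capitals mark letters of the 6 motifs searched, on either strand. The GC box was searched as GGGCGG, the CCAAT box by the letters of its name, the ETS motif as CCGGAAGT and the cyclic AMP response element (CRE) as TGACGTCA. The AP-1 motif was searched as TGANTCA, and the palindromic NRF1 motif was searched too. None of these motifs contains another. Ino80 (chr2:119477638-119477937, minus strand) encodes the ATPase of a chromatin remodelling complex, and Phkb (chr8:85840738-85841037, plus strand) a regulatory subunit of phosphorylase kinase. Gna12 (chr5:140830382-140830681, minus strand) encodes a G protein alpha subunit, and Frmd5 (chr2:121807008-121807307, minus strand) a FERM domain protein. Rev1 (chr1:38129617-38129916, minus strand) encodes a translesion DNA polymerase, and Rpl5 (chr5:107900278-107900577, plus strand) a protein of the large ribosomal subunit.
Ino80: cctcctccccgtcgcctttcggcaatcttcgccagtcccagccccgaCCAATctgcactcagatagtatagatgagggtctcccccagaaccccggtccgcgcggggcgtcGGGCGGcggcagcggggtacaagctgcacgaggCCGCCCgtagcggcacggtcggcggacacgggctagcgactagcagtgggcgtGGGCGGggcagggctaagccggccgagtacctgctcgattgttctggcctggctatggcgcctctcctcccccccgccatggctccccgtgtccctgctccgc
Phkb: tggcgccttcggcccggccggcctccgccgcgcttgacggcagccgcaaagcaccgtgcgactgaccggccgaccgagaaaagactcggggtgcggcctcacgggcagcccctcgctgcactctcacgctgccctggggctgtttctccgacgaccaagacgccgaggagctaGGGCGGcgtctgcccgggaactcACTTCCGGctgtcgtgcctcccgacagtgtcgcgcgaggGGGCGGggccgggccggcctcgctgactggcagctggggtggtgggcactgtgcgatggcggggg
Gna12: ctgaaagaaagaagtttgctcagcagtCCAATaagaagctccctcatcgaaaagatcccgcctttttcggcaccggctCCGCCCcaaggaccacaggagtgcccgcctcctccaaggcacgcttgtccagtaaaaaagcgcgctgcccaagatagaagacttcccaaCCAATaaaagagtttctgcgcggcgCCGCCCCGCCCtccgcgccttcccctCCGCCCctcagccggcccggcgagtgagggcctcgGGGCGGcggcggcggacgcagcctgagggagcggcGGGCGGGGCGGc
Frmd5: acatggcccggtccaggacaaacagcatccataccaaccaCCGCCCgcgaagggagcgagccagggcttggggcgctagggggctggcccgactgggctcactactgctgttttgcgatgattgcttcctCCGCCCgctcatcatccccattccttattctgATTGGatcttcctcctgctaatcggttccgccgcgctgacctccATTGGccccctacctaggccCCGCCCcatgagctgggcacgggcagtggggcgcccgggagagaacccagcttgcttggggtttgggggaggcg
Rev1: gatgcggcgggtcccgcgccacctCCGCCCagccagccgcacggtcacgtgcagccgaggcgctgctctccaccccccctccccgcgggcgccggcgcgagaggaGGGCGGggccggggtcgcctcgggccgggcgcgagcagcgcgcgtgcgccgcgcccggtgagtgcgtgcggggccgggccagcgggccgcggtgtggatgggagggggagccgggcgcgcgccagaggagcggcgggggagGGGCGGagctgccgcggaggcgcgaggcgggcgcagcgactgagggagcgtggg
Rpl5: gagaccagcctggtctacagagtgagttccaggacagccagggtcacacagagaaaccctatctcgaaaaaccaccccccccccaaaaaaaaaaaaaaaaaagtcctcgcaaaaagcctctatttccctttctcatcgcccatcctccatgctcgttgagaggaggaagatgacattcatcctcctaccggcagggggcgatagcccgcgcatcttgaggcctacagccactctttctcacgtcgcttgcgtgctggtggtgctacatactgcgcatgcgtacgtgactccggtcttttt

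The Ino80, Frmd5 and Rev1 promoters each held 3 GC boxes, with overlapping matches counted, and Gna12 held 7. Phkb held 2 GC boxes and the ETS letters once. Rpl5 held none of the 6 motifs. Over the 23 promoters the GC content had a median of 66.7% and ranged from 42.0% to 83.0%, against a median of 52.7% for all 32851 promoters of the table. The ratio of observed to expected CpG had a median of 0.90, from 0.41 for Zfp64 to 1.10 for Cdca7l, against 0.38 for all promoters. A GC box was found in 17 of the 23 (73.9%) and in 35.7% of all promoters, and CCAAT in 11 (47.8%) and in 37.4%. The ETS letters were in 3 (13.0%) against 3.89%, and the CRE letters in 1, Btaf1, against 1.79%. AP-1 and NRF1 letters were in 0 of the 23, against 7.81% and 0.97% of all promoters. The 23 promoters were thus mostly rich in GC and CpG, with low GC at Tmem33 (42.0%) and Tsn (47.0%). They were not tested against the table, which also holds many noncoding genes, nor set beside promoters at other open sites. The contrast is therefore not shown to be particular to Toca1-only sites. In the same table Phkb starts head to head with Itfg1 within 1000 bp, and 4 of the 25 genes listed had such a neighbour (16.0%), against 12.2% of all genes.

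Among the placed genes, the widest Toca1/Fnbp1l peak lay at Ino80, 1490 bp wide, over a donor peak of 655 bp (chr2:119303512-119304166, mm9) and a C2C12 peak of 1672 bp. The nearest control NT peak was 41528 bp away. At Phkb the donor peak was 347 bp wide (chr8:88364661-88365007), the C2C12 peak 1187 bp and the Toca1/Fnbp1l peak 1164 bp, with the nearest control peak at 139735 bp. At both genes the donor peak lay wholly within the Toca1/Fnbp1l peak. At Gna12 the donor, C2C12 and Toca1/Fnbp1l peaks were 601, 873 and 1150 bp wide. At Rev1 the 3 peaks nearly coincided, with widths of 1079, 1081 and 1063 bp. At Rpl5 a single Toca1/Fnbp1l peak of 1011 bp covered parts of both donor peaks (293 and 358 bp wide), so these 2 sites share their evidence.

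Genes for chromatin, transcription and nucleic acid handling formed a first group among the 30 sites with the widest Toca1/Fnbp1l peaks. Besides Ino80, Rev1 and Rpl5 they included Btaf1, an ATPase that removes TBP from DNA (Toca1/Fnbp1l peak of 1010 bp), Tsn, which encodes the nucleic acid-binding protein translin (1011 bp), and Pcbp3, which encodes a poly(C)-binding protein (1114 bp). Zfp64, a zinc finger gene, had a peak of 923 bp, the splicing factor gene Syf2 one of 885 bp, and Bach1, a heme-sensitive repressor, one of 798 bp. Tfcp2l1, a transcription factor of the pluripotency network, had a Toca1/Fnbp1l peak of 640 bp over a donor peak of 410 bp. Bend3 (559 bp), Cdca7l (524 bp) and Ube2v2, a partner of ubiquitin-conjugating enzymes in DNA damage tolerance (596 bp), completed the group.

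Genes for signalling, the cytoskeleton and membranes formed a second group. Trio, a guanine nucleotide exchange factor for small GTPases, had a Toca1/Fnbp1l peak of 1029 bp over a donor peak of 591 bp, 93797 bp from the nearest control peak. Plcg1, a phospholipase C, had a peak of 845 bp over a donor peak of 307 bp. Ssh2, a phosphatase that activates the actin-severing protein cofilin, and Sh3pxd2a, a podosome scaffold, each held a site in the gene body, with Toca1/Fnbp1l peaks of 672 and 512 bp. The site in the body of Btbd11 had a Toca1/Fnbp1l peak of 596 bp that covered 13.6% of the donor peak. The endoplasmic reticulum stress sensor Ern1 (775 bp), the clathrin adaptor gene Clint1 (940 bp), the sulfotransferase gene Chst11 (703 bp), Entpd7 (905 bp), Fa2h (877 bp), Tmem33 (842 bp), Pcnx (960 bp) and Lca5l (764 bp) had peaks at the TSS. The remaining 8 of the 38 sites had Toca1/Fnbp1l peaks of 280 to 505 bp. These groupings were made after the genes were known and were not tested.

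Of the 38 sites, those at Bach1, Tmem33 and in the body of Tnrc6b had a control NT peak within 500 bp. At Bach1 a control NT peak began 35 bp beyond the donor peak, at Tmem33 267 bp beyond it and at Tnrc6b 361 bp away. At Bach1 and Tmem33 the Toca1/Fnbp1l peak reached across to the control peak, so both NT lists held a peak at these TSSs. The 1000-cell C2C12 list, which had no part in the choice, overlapped 8 of the 34 sites at a TSS, those of Gna12, Pcbp3, Trio, Tsn, Zfp64, Entpd7, Ern1 and Plrg1. It overlapped 6.03% of all donor peaks, 8.44% of the shared ones and 12% of all Toca1-only sites. None of the 63 genes in 6 lists (actin assembly, matrix, immediate-early, housekeeping, myogenic and pluripotency genes) and none of 10 myoblast and fibroblast marker genes had a TSS that could be placed from the shortened list, so neither those lists nor the labelled cell types could be checked at genes.

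**Figure D1:**
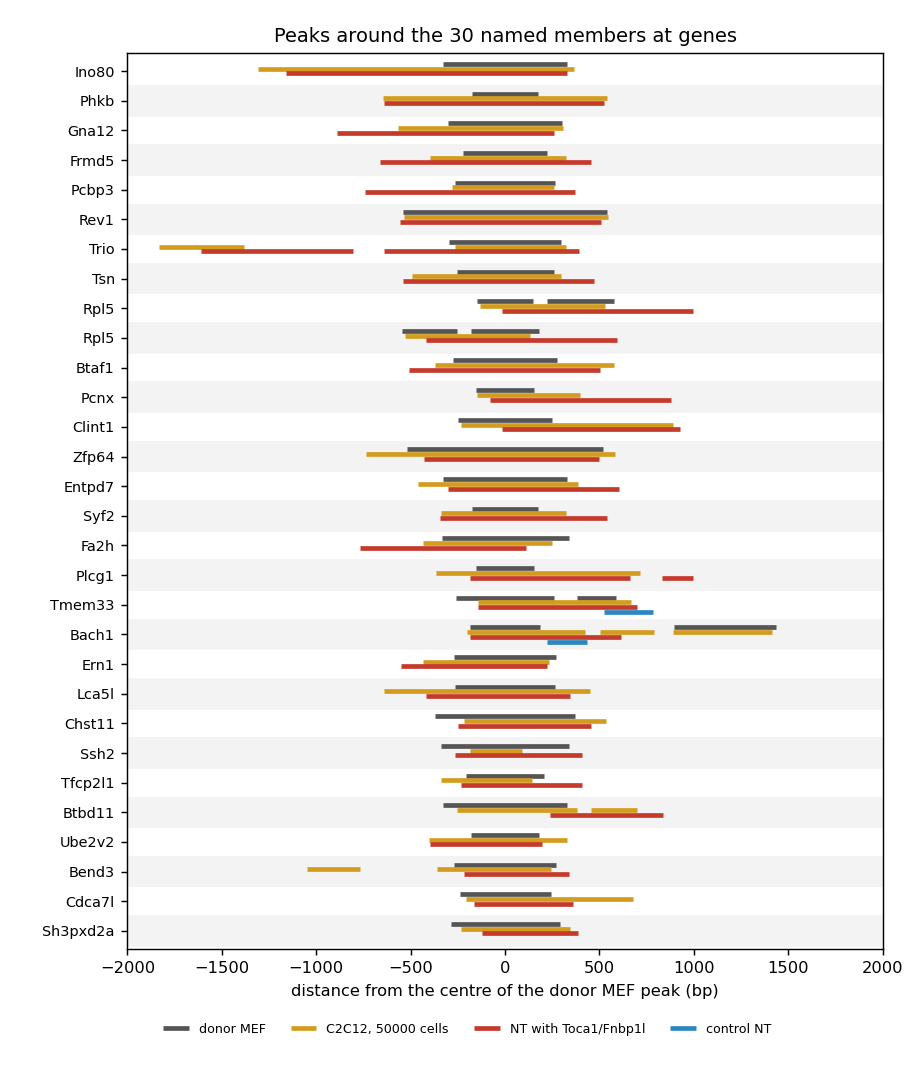
Peaks of 4 lists around the 30 placed sites with the widest Toca1/Fnbp1l peaks, 1 row per site, against the distance in bp from the centre of the donor MEF peak (bars span each peak). Rpl5 has 2 rows because 2 donor peaks lie there, and control NT peaks (blue) appear only beside Tmem33 and Bach1.

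Seen among all donor peaks shared with C2C12 cells, the Toca1-only class was the largest of those found after NT. Of the 25562 shared donor peaks (64.6% of the donor list), 4475 (17.5%, interval 17.0% to 18%) were Toca1-only sites. A further 2693 (10.5%) had a peak in both NT lists, 879 (3.44%) had one in control NT only, and 17515 (68.5%) had none. The Toca1-only sites outnumbered the control-only sites 5.09 to 1. They did so on each of the 20 chromosomes, from 3.37 to 1 on chromosome 15 to 13.2 to 1 on chromosome 18, where 10 control-only sites were found. The 2 lists differ in size. When the Toca1/Fnbp1l list was reduced to its 8257 widest peaks, the number in the control list, the ratio was 2.45 and 3231 Toca1-only sites were left. This cut matched the lists in number but not in width. It kept peaks of at least 464 bp, whereas the control list had a median of 291 bp, and wider peaks overlap a donor peak more readily. When a control peak within 5000 bp was enough to count as present, the ratio was 2.01. A Toca1/Fnbp1l peak still had to overlap the donor peak by at least 1 bp there, so the 2 lists were held to unlike limits.

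**Figure D2:**
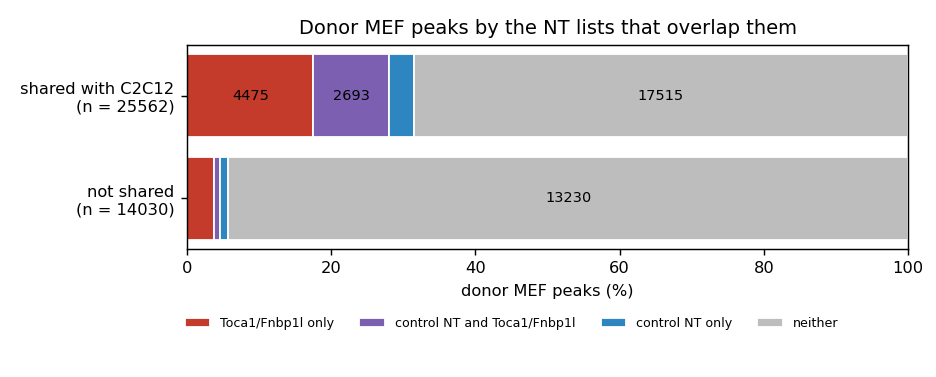
Share of donor MEF peaks (x axis, %) by the NT lists that overlap them, for the 25562 peaks shared with C2C12 cells and the 14030 that are not (numbers in the bars are peaks). The red part is 17.5% of the shared peaks and 3.69% of the others.

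Donor peaks that C2C12 cells lacked were seldom found after NT, with Toca1/Fnbp1l or in control NT. Over all donor peaks, 19.7% overlapped a Toca1/Fnbp1l peak and 9.73% a control NT peak, and over the shared ones 28.0% and 14.0% did. Of the 14030 fibroblast-only donor peaks, 3.69% had a Toca1/Fnbp1l peak only, 1.21% a control NT peak only and 0.80% both. For shared donor peaks these shares were 17.5%, 3.44% and 10.5%, so each NT list met fibroblast-only peaks less often. Among donor peaks without a control NT peak, 4475 of 21990 shared peaks (20.4%, interval 19.8% to 20.9%) and 518 of 13748 fibroblast-only peaks (3.77%, interval 3.46% to 4.10%) had a Toca1/Fnbp1l peak. The difference was 16.6 percentage points (Newcombe interval 16.0 to 17.2). It had the same direction on each of the 20 chromosomes. With overlaps of at least 50% of both peaks it was 9.98 percentage points, and 2647 Toca1-only sites were left. Width moved with this result, since 6711 of the 13748 fibroblast-only peaks and 6071 of the 21990 shared ones fell in the narrowest of 4 width bins. In that bin (up to 333 bp) 12.9% of shared and 3.14% of fibroblast-only peaks had a Toca1/Fnbp1l peak, and in the widest (over 588 bp) 33.1% and 6.34% did, so the gap was present at each end of the width range. The rule used the Toca1/Fnbp1l and C2C12 lists, so this remains a description of the same lists.

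Toca1-only sites lay between the other classes in the width of the donor peak. A wider donor peak meets any list by 1 bp more readily, so the rule bears on this measure and the order is a description. The median was 511 bp (quartiles 374 and 657 bp), against 578 bp for sites in both NT lists, 493 bp for control-only sites and 406 bp for shared sites in neither. Their share of the shared donor peaks was 11.2% in the narrowest of 10 width bins (150 to 268 bp) and 26.7% in the widest (740 to 1688 bp). The share of sites in both NT lists was 2.72% and 24.7% in the same bins. Among narrow donor peaks the Toca1-only class was thus several times as large as the class found in both, while among the widest the classes were close in size. Control-only sites made up 2.11% to 4.90% of each bin.

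**Figure D3:**
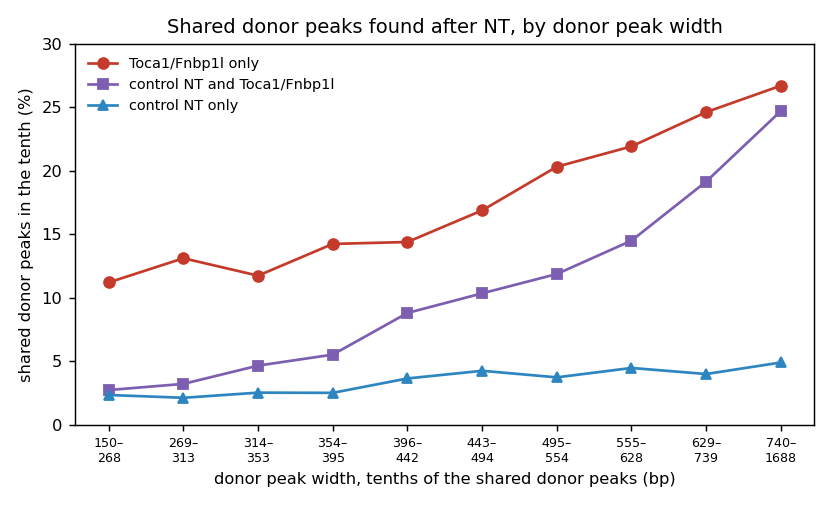
Share of shared donor peaks (y axis, %) in 3 classes against the width of the donor peak, in 10 bins of about equal number (x axis, range of widths in bp). Toca1-only sites (red) go from 11.2% to 26.7% and sites in both NT lists (purple) from 2.72% to 24.7%.

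The peaks over these sites differed in width from list to list. Over whole lists the median width was 399 bp in donor MEFs, 392 bp in C2C12 cells, 467 bp with Toca1/Fnbp1l and 291 bp after control NT. Overlap favours wide peaks, and the widths at the sites are read as a description of peaks chosen in that way. At Toca1-only sites the median was 689 bp in C2C12 cells (interval from order statistics 674 to 701 bp) and 648 bp (636 to 662 bp) with Toca1/Fnbp1l, against 511 bp for the donor peak. At sites in both NT lists the Toca1/Fnbp1l peak had a median of 751 bp and the control NT peak one of 419 bp. The Toca1/Fnbp1l peak was wider than the donor peak at 2833 of the 4475 Toca1-only sites (63.3%), and the donor peak lay wholly inside it at 1110 (24.8%). Toca1/Fnbp1l peaks covered a median of 81.5% of the donor peak, and the centres lay a median of 148 bp apart. The C2C12 peak was centred closer to the donor peak, at a median of 88 bp. At 4435 sites (99.1%) at least 1 base lay under a donor, a C2C12 and a Toca1/Fnbp1l peak at once.

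A wide Toca1/Fnbp1l peak over a shared donor peak did not guarantee a control peak on that donor peak. Control peaks elsewhere under the Toca1/Fnbp1l peak were not counted here, and 225 of all 4475 Toca1-only sites had one. Of shared donor peaks under a Toca1/Fnbp1l peak from 150 to below 300 bp wide, 80.0% (480 of 600) were Toca1-only sites, and of those under a peak from 1000 to below 1500 bp 55.5% (695 of 1253) still were. At 1500 bp or more the share was 55.3% (57 of 103, interval 45.7% to 64.6%). In all, 752 Toca1-only sites (16.8%) lay under a Toca1/Fnbp1l peak at least 1000 bp wide. The widest, 1934 bp, covered 2 sites on chromosome 11, at chr11:60230395-60230848 and chr11:60230914-60231160, and the nearest control peak was 62047 bp away from the second. Next came sites at chr14:63379855-63380650 (1933 bp), chr15:66799982-66800723 (1920 bp) and chr10:84565087-84565638 (1899 bp). The one on chromosome 15 had a control peak 397 bp away.

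The extent of the Toca1/Fnbp1l peak was compared with the other peaks at the same site as the bases shared by a pair divided by their joint span. For the 4475 Toca1-only sites this had a median of 49.8% with the donor peak and 58.2% with the C2C12 peak, although the nuclei were those of MEFs. The Toca1/Fnbp1l peak shared more of the span with the C2C12 peak at 2653 sites (59.3%, interval 57.8% to 60.7%). At sites in both NT lists it did so at 1632 of 2693 (60.6%). C2C12 peaks were wider than the donor peak at 72.8% of the Toca1-only sites, and the part of peak width in this result was not tested.

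**Figure D4:**
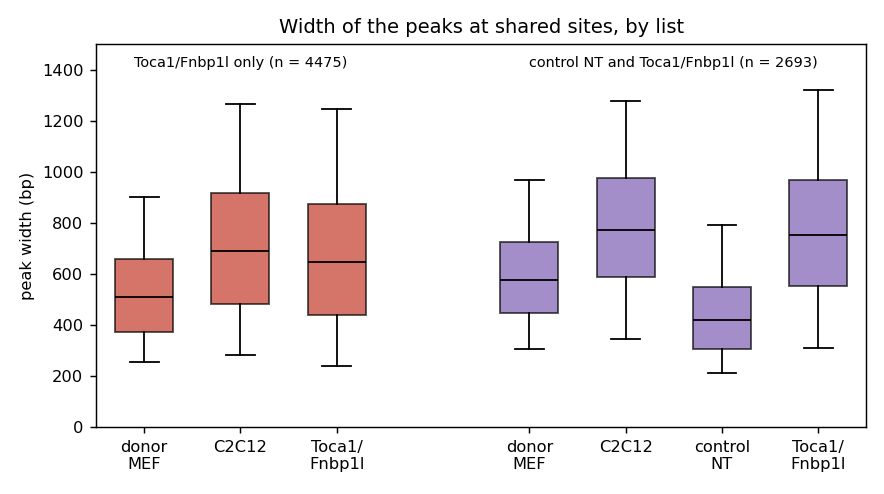
Peak width (y axis, bp) by list at Toca1-only sites (red, n = 4475) and at shared sites in both NT lists (purple, n = 2693). Lines in the boxes are medians (511, 689 and 648 bp in red), boxes span the quartiles and whiskers the 5th to 95th percentile.

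The 5 widest donor peaks among the Toca1-only sites had wide C2C12 peaks too, from 883 to 1587 bp. The widest, 1688 bp at chr6:113025952-113027639, had a Toca1/Fnbp1l peak of 1542 bp, and the nearest control peak was 159811 bp away. Others were 1440 bp wide at chr8:106864225-106865664, 1402 bp at chr8:27268407-27269808, 1343 bp at chr3:131152616-131153958 and 1326 bp at chr17:48548748-48550073. Their Toca1/Fnbp1l peaks were 470, 1314, 1178 and 1024 bp wide. At the first of these 4 the Toca1/Fnbp1l peak was thus much narrower than the donor peak, and at the others it spanned most of it. Of these 5 sites, 3 also had a 1000-cell C2C12 peak, those on chromosomes 3, 6 and 17.

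The 1000-cell C2C12 list gave a measure that the rule did not use, though from the same cell line. Its peaks numbered 34771, against 52697 in the 50000-cell list, and were narrower (median 258 against 392 bp). Few donor peaks met it, 6.03% against 64.6% for the 50000-cell list, so it recovered only a small part of the shared sites. The cause of this gap was not tested. The 1000-cell list overlapped 537 of the 4475 Toca1-only sites (12%, interval 11.1% to 13.0%), against 6.03% of all donor peaks and 8.44% of all shared ones. When every overlap had to reach 50% of both peaks, the share at Toca1-only sites was 6.95%. Shares of the other classes and of all donor peaks are not given for that setting, so 6.95% has no comparison here. With overlaps of at least 1 bp the share was 20.1% (18.6% to 21.6%) at sites in both NT lists, 13.4% (11.3% to 15.8%) at control-only sites and 5.50% (5.17% to 5.85%) at shared sites in neither. Toca1-only sites therefore lay above sites in neither and below sites in both by more than the counting error, and their interval overlapped that of control-only sites. Width moved with this order too. Within the 4 bins of donor width, from narrow to wide, the share at Toca1-only sites was 5.11%, 8.23%, 14.0% and 15.9%, at sites in neither 3.33%, 4.49%, 6.17% and 9.74%, and at sites in both 9.45%, 10.5%, 18.9% and 25.6%. The intervals of Toca1-only sites and sites in neither overlapped in the narrowest bin and were apart in the other 3. Those of Toca1-only sites and sites in both were apart only in the 2 wider bins. Control-only sites gave 8.67%, 14.0%, 12.2% and 16.8%, and their intervals overlapped those of Toca1-only sites in each bin.

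When sites were split by the width of the 50000-cell C2C12 peak instead, the widest of 4 bins (over 743 bp) gave 13.9% (12.4% to 15.5%) at Toca1-only sites, 25.0% (22.8% to 27.3%) at sites in both and 9.32% (8.28% to 10.5%) at sites in neither. In the other 3 bins, from narrow to wide, Toca1-only sites gave 5.01%, 9.88% and 13.3% and sites in both 5.81%, 12% and 17.1%, and the intervals of these classes overlapped in each. Sites in both and Toca1-only sites were thus apart beyond counting error only in the widest bin. Control-only sites gave 17.0% (13.1% to 21.9%) there, an interval that overlapped that of Toca1-only sites. This split was added after the data had been seen.

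**Figure D5:**
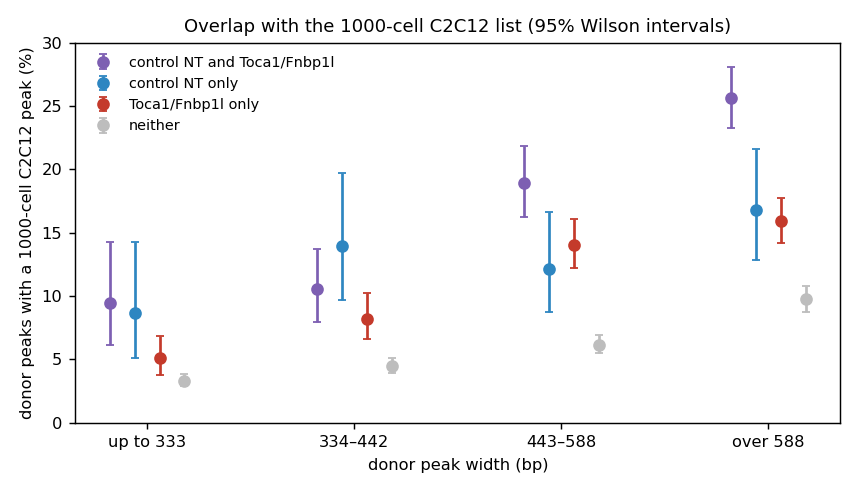
Share of shared donor peaks with a 1000-cell C2C12 peak (y axis, %; bars are 95% Wilson intervals) in 4 bins of donor peak width (x axis, bp), by class. In the widest bin Toca1-only sites (red) stand at 15.9%, sites in both NT lists (purple) at 25.6% and sites in neither (grey) at 9.74%.

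The label "only with Toca1" depended on where a control peak was looked for. The nearest control NT peak lay a median of 47743 bp from a Toca1-only site (quartiles 18105 and 109158 bp), but 303 sites (6.77%, interval 6.07% to 7.54%) had one within 500 bp and 88 within 100 bp. At shared sites in neither NT list 1.72% (1.54% to 1.92%) had one within 500 bp. Close control peaks were thus more frequent beside Toca1-only sites. At 209 of the 303 the Toca1/Fnbp1l peak also overlapped a control peak, so that there a single Toca1/Fnbp1l peak lay over both the site and a control peak. In all, 225 sites (5.03%) had a Toca1/Fnbp1l peak that touched a control peak, and 4250 remained without them.

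The nearest control peaks lay 2 bp from the site at chr17:68353158-68353917 and 4 bp from those at chr2:167318320-167318811 and chr5:120120222-120120443. The most isolated sites were chr12:45369936-45370821, chr3:75760511-75761276 and chr1:30930400-30930929, with 4197191, 2880201 and 2733400 bp to the nearest control peak. Their Toca1/Fnbp1l peaks were 334, 1051 and 572 bp wide. At the 1 bp limit of the rule, 6 sites overlapped the Toca1/Fnbp1l list by under 10 bp (the smallest overlap was 5 bp, at chr12:102267556-102267981 and chrX:96132233-96132918) and 2 overlapped the C2C12 list by under 10 bp. Just outside it, 11 shared donor peaks with a Toca1/Fnbp1l peak were left out for an overlap of under 10 bp with a control peak, the smallest being 1 bp at chr2:127161551-127161953.

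Toca1-only sites were spread over the genome. Their share of the shared donor peaks ran from 13.8% on chromosomes 13 and 15 to 20.9% on chromosome 11 (interval 19.0% to 22.9%), and chromosome X had 17.2% (14.4% to 20.5%). Most stood alone along the donor list, of which they made up 11.3%. How many would stand alone at that share was not computed, so this is no measure of spread or clustering. A total of 3017 had no Toca1-only site as the next donor peak on either side, while 535 runs of successive donor peaks held 2, 95 held 3, 22 held 4 and 3 held 5. The runs of 5 spanned 66629 bp on chromosome 2 (chr2:30026866-30093494), 16726 bp on chromosome 5 (chr5:138612136-138628861) and 34907 bp on chromosome 7 (chr7:148379848-148414754). In the run on chromosome 5 a single Toca1/Fnbp1l peak of 1398 bp overlapped 3 donor peaks, and another of 388 bp overlapped the other 2. In the run on chromosome 7 a Toca1/Fnbp1l peak of 722 bp overlapped 2 donor peaks. These 2 runs thus count fewer separate Toca1/Fnbp1l peaks than donor peaks. Over all sites, 4325 Toca1/Fnbp1l peaks (26.4% of that list) covered the 4475 donor peaks, 198 of them covering 2 and 4 covering 3.

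Another donor peak lay within 1000 bp of 1085 Toca1-only sites (24.2%, interval 23.0% to 25.5%), more often than for shared sites in both NT lists (17.9%, interval 16.5% to 19.4%) or in neither (17.6%, interval 17.0% to 18.2%). For 497 sites (11.1%) the neighbour was itself a Toca1-only site, and for 169 (3.78%) a neighbour overlapped a control NT peak. The densest windows of 1 Mb held 16 of 47 shared donor peaks as Toca1-only sites (chromosome 19, from 5000001 to 6000000), 13 of 46 (chromosome 10, from 79000001 to 80000000) and 13 of 33 (chromosome 11, from 115000001 to 116000000).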

How the data were processed

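Open chromatin was measured by ATAC-seq. The deposited files are the authors' peak lists, 1 per condition, and hold no counts or scores but peak positions in bp by chromosome, at a false discovery rate of 0.01 according to the list names. Each list was assigned to a condition by its name. How libraries of a condition were combined is not given in the sources used here. The submitters' processing notes name Bowtie2 2.2.1, Picard, MACS2 2.1 and mm9. Starts were changed to 1-based. Donor MEF peaks were sorted by overlap of at least 1 bp with each other list, with 4 classes of shared peaks. Where several peaks of a list overlapped a site, the widest was measured. The classes were recovered from simulated lists of 39592 donor peaks (5045 of 5045 sites, 0 false). This checked the overlap code only. The simulated donor peaks lay far apart, each with its own partner peaks, so peaks that cover several sites were not tried. Sites were placed at a TSS only where the listed distances of at least 2 peaks newly opened after NT, in a shortened copy of the study's list, had a single position in common within 2 bp, or in a gene between 2 peaks listed in that gene. Only positions, distances and gene names were taken from that list, none of which is printed but the names, and no set test was run. The planned annotation and sequence of the peaks themselves were not analysed here, since no genome of the build of the lists was used.

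The sites and gene lists were chosen with earlier results of these data known. Sites named were those with the 5 widest Toca1/Fnbp1l peaks, the 5 widest donor peaks, the 3 nearest to and 3 farthest from a control peak, the 3 longest runs, those at the limit of the rule and 30 placed at genes by Toca1/Fnbp1l peak width. The promoter motifs, the joint spans and the bins of C2C12 width were added after the data had been seen. Alternatives were a reciprocal overlap of at least 50%, a distance of 500 bp, a minimum width of 250 bp, joining within 150 bp, autosomes, the widest 8257 Toca1/Fnbp1l peaks, the 1000-cell list and a control peak within 5000 bp. Python 3.11.15, numpy 2.4.6, scipy 1.17.1 and matplotlib 3.10.9 were used.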

Additional observations from a re-analysis of the deposited data

How the results depend on the processing

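Of 51 values under 9 alternatives, 26 stayed within their interval, or within 1.5 times for counts and ratios. Only the ratio to control-only sites and the difference from fibroblast-only peaks have a direction. Neither changed it under any alternative for which it was computed. Joining peaks and leaving out chromosome X moved none of the 6 results. The causes of the moves were not tested. With a reciprocal overlap of at least 50%, 2647 sites were left, 12.7% of the shared donor peaks, with a difference from fibroblast-only peaks of 9.98 percentage points, a 1000-cell share of 6.95% and a median Toca1/Fnbp1l width of 635 bp. Counting peaks within 500 bp gave 18.6%, 17.7 points, 15.2% and 614 bp for these, and peaks of at least 250 bp gave 19.0%, 18 points, 9.91% and 675 bp. With the widest 8257 Toca1/Fnbp1l peaks the values were 12.6%, 12.6 points and 769 bp, and the ratio to control-only sites was 2.45. With the 1000-cell C2C12 list, 554 sites were found, or 23.2%, with a difference of 19.2 points and a width of 672 bp. Without a control peak within 5000 bp the share was 15.7% and the ratio 2.01, with the wider limit set for the control list only. Leaving out sites whose Toca1/Fnbp1l peak met a control peak, which was added after seeing the data, gave 16.6% and 627 bp. No paired analysis was possible because each condition has 1 list and no values per library, and for the same reason no replicate could be left out.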
